A study of Homo sapiens with 4 samples.

Results

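The replication-independent histone variant genes were examined in RPE-1 cells, a line of human retinal pigment epithelial cells made immortal by telomerase (hTERT). The set was given as a list of current NCBI gene symbols, H1-10, H2AX, H2AZ1, H2AZ2, H3-3A, H3-3B, MACROH2A1 and MACROH2A2, and all 8 were found among the 23459 genes listed. The cells, of wild type genotype and each group from the same line, were held for 48 h in medium with 0.1% FBS and then exposed to 200 μM merbarone, a catalytic inhibitor of type II topoisomerases, for 4 h (2 libraries) or 8 h (2 libraries). RNA-Seq was made from polyadenylated RNA with a stranded kit, and no untreated library was analysed here, so hours of exposure and further hours in low serum cannot be told apart.

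Each library held between 8064450 and 10324697 counts on genes, and the replicates of a time differed by more than counting noise (chi-square per degree of freedom of 2.67 at 4 h and 3.84 at 8 h). The study calls the replicates biological, but the sources used here do not say whether they were separate cultures. The p-values therefore concern the spread between these libraries only. In the edgeR test used below, the variance of each gene is drawn towards that of other genes and is not its own spread alone. Of the markers of pigment epithelium, MITF had 669 to 882 counts and OTX2 132 to 193, while RPE65 had 2 to 7 and TYR 0 in all 4 libraries. Markers of blood, endothelial, photoreceptor, liver and glial cells summed to 10 to 12 counts per library. In bulk RNA, fewer cells that express a gene and less RNA per cell cannot be told apart.

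Most histone protein is made from clustered genes that are active in S phase and whose mRNAs end in a stem-loop without a poly(A) tail. The genes described here differ from them, since they also supply histones outside S phase and yield polyadenylated mRNA, although H2AX mRNA can end in either way. Their products replace the canonical histones at particular places: H2A.Z around promoters, H3.3 in transcribed chromatin and at telomeres, macroH2A in silent chromatin, and H2A.X throughout the genome, where its C-terminal serine is phosphorylated next to DNA double-strand breaks.

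Between 4 h and 8 h, 5 of the 8 genes fell, 2 did not pass the test and H3-3A had too few reads to be tested. The genes that fell were H2AX, MACROH2A2, H2AZ1, H1-10 and H2AZ2, from −1.18 to −0.24 in log2 fold change (log2FC), and H3-3B and MACROH2A1 lay at −0.08 and 0.05. Of the 7 genes with enough reads, 5 were therefore lower at an adjusted p below 0.05, against 18.8% of the 12559 genes tested, and 0 were higher (0 also at an unadjusted p below 0.05), against 19.9%. H2AX was the only gene of the set past the log2FC threshold of 1 as well, in a background of 3.88% of genes lower by this rule. The median log2FC was −0.36 over the 7 genes and −0.002 over all genes tested. The test was the quasi-likelihood test of edgeR with Benjamini-Hochberg adjustment over all tested genes, after TMM normalization. In the text, a normalized count is a count divided by the effective library size of TMM and multiplied by the mean of these sizes.

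**Figure D1:**
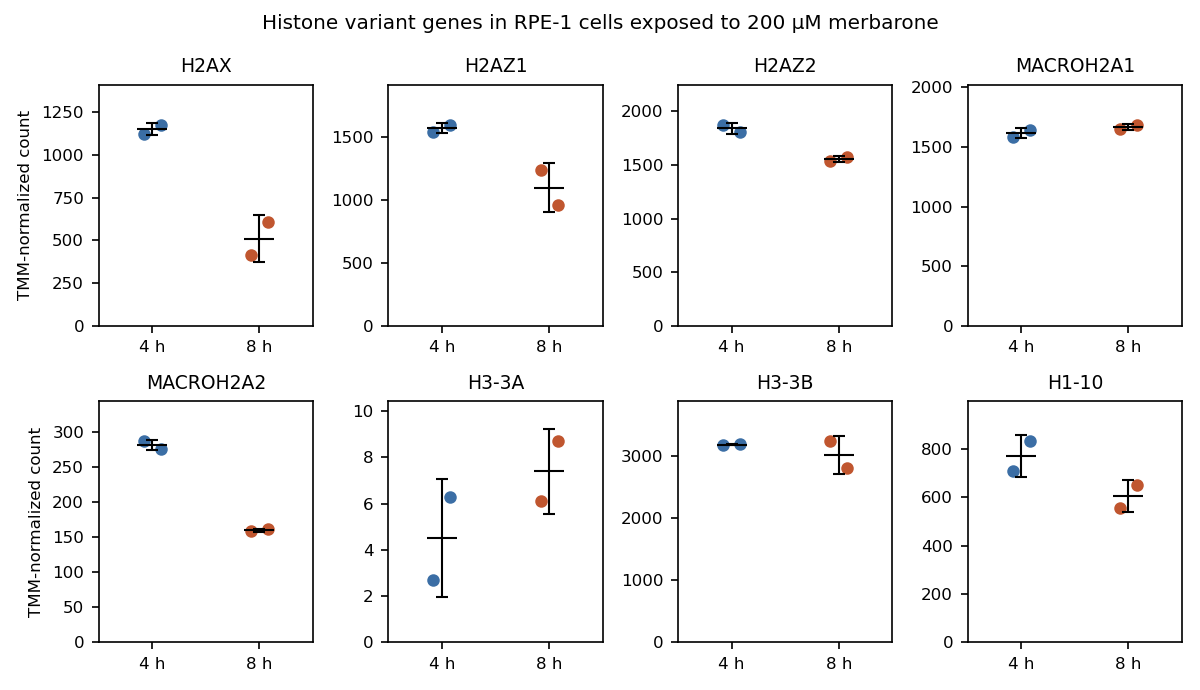
TMM-normalized counts (y axis, from 0, a separate scale for each gene) of the 8 histone variant genes at 4 h and 8 h of merbarone. Points are libraries, the horizontal mark is the mean and the bar the SD (n = 2). Both 8 h libraries lie below both 4 h libraries for H2AX, H2AZ1, H2AZ2, MACROH2A2 and H1-10, and H3-3A stays below 10 normalized counts throughout.

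Both 8 h libraries lay below both 4 h libraries for 5 genes of the set, which is also the case for 34.9% of all tested genes. MACROH2A1 had both 8 h libraries above, and H3-3A and H3-3B overlapped. The normalized counts of the 8 genes summed to 10421 ± 160 at 4 h and 8629 ± 242 at 8 h (SD, n = 2 each), a difference of −1792 or −17.2%. H2AX supplied −639.1 of it, H2AZ1 −473.0 and H2AZ2 −284.0, while MACROH2A1 went the other way with 55.0. These are parts of the counts and not of the mRNA, since genes differ in the length on which reads can be counted. Per kb of that length, described below, the order differed. The mean of H2AZ1 was 6221 at 4 h and 4343 at 8 h, and that of H2AX 762.7 and 338.8.

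H2AX encodes H2A.X, the variant whose phosphorylated form, gamma-H2AX, marks DNA breaks. The gene has a single exon (chromosome 11, 118964584 to 118966175, minus strand, hg19). At 4 h its normalized counts were 1124.4 in replicate 1 and 1175.8 in replicate 2, and at 8 h they were 414.2 and 607.6. Both 8 h libraries were far below the 4 h libraries, and they differed from each other more than the 4 h pair did. The mean went from 1150 ± 36.3 to 510.9 ± 137 (SD, n = 2 each), a fall to 0.441 of the 4 h level (log2FC −1.18, standard error 0.12, edgeR adjusted p = 4.26e-07). DESeq2 gave a similar log2FC of −1.17 with a wider standard error of 0.27 (DESeq2 adjusted p = 0.000183). In edgeR, the size of the fall depended on the 8 h library used. Without replicate 1 at 8 h the log2FC was −0.92, under the threshold of 1, and without replicate 2 at 8 h it was −1.47.

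H2AZ1 and H2AZ2 encode H2A.Z.1 and H2A.Z.2, nearly identical proteins of the nucleosomes that flank promoters and enhancers. H2AZ1 (chromosome 4, 100869243 to 100871512, minus strand) went from 1540.8 and 1594.6 normalized counts in the 4 h libraries to 1232.4 and 956.7 in those at 8 h. The 8 h libraries were lower and wider apart than the 4 h libraries. This fall was to 0.700 of the 4 h level (log2FC −0.51, standard error 0.10, edgeR adjusted p = 0.000394). Without replicate 2 at 8 h the log2FC was −0.35, and without replicate 1 at 8 h it was −0.71.

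H2AZ2 (chromosome 7, 44866390 to 44887686, minus strand) went from 1876.5 and 1807.7 normalized counts in the 4 h libraries to 1538.2 and 1578.0 later, with a narrow gap within each time. It fell to 0.846 of the 4 h level (log2FC −0.24, standard error 0.08, edgeR adjusted p = 0.0186). This call was lost with DESeq2 (log2FC −0.24, adjusted p = 0.0527) and without either 4 h library, and over all alternatives its adjusted p ran from 0.00132 to 0.134.

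Since both genes supply H2A.Z, the share of H2AZ1 in the counts of the pair was taken within each library, where scaling has no part. It was 45.1% (Wilson 95% interval 43.5 to 46.7) and 46.9% (45.3 to 48.5) at 4 h, and 44.5% (42.6 to 46.4) and 37.8% (35.7 to 39.9) at 8 h. Only replicate 2 at 8 h stood clear of the other libraries beyond counting error. The mean difference was −4.87 percentage points (exact permutation test, two-sided, p = 0.33, the smallest that 2 libraries against 2 allow), and it was −1.5 points without replicate 2 at 8 h. These shares do not allow for the 252 countable positions of H2AZ1 against 2312 of H2AZ2, so they are not parts of the H2A.Z mRNA. With counts taken per countable position the difference was −2.25 points. On that scale H2AZ1 was far above H2AZ2 (means of 6221 and 796.8 per kb at 4 h), so its points are not comparable with the −4.87. The fold change in the ratio of the genes is the same on both scales.

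MACROH2A1 and MACROH2A2 encode macroH2A1 and macroH2A2, H2A variants with a large C-terminal macro domain that are known from the inactive X chromosome and other silent chromatin. MACROH2A1 (chromosome 5, 134670071 to 134735604, minus strand) gave 1587.5 and 1644.5 normalized counts in the 4 h libraries, against 1653.8 and 1687.3 in the 8 h libraries. The 4 libraries lay close together, with both 8 h values slightly above (log2FC 0.05, 95% interval −0.12 to 0.21, edgeR adjusted p = 0.658). Its sign turned with the scaling, to −0.06 with library size alone, which moved the median of all genes to −0.11, and to −0.07 with a correction for the trend of each library with mean expression. PITX1-AS1, which overlaps 1126 bases of its exons on the other strand, had 0 or 1 count per library.

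MACROH2A2 (chromosome 10, 71812300 to 71872038, plus strand) gave 287.2 and 276.5 normalized counts in the 4 h libraries, against 158.5 and 161.5 in the 8 h libraries. The replicates of each time were nearly alike and the times far apart, a fall to 0.568 of the 4 h level (log2FC −0.82, standard error 0.14, edgeR adjusted p = 0.000107). With a library left out in turn, its log2FC stayed between −0.85 and −0.80. The gene AIFM2 overlaps 1030 bases of its exons on the other strand and had 329 and 370 counts in the 4 h libraries, then 311 and 219. The strand setting of the counting is not given in the sources used here, and the part of such reads in the count was not tested.

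Of the counts of the macroH2A pair, the share of MACROH2A1 was 84.7% (Wilson 95% interval 83.1 to 86.2) and 85.6% (84.1 to 87.0) at 4 h, and 91.3% in both 8 h libraries (89.9 to 92.5 and 89.7 to 92.6). The intervals of the times did not overlap. The difference was 6.11 percentage points (exact permutation test, two-sided, p = 0.33, the smallest possible), between 5.65 and 6.58 with a library left out. Intervals of shares cover counting error only.

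**Figure D2:**
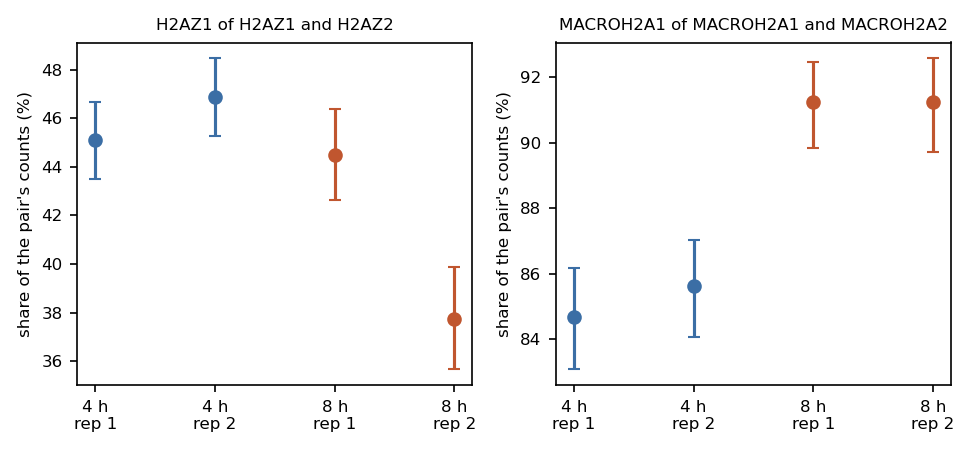
Share (%) of H2AZ1 in the counts of H2AZ1 and H2AZ2, and of MACROH2A1 in those of MACROH2A1 and MACROH2A2, in each library. Points are shares with Wilson 95% intervals, blue at 4 h and red at 8 h, on axes that do not start at 0. For macroH2A both 8 h libraries are at 91.3%, above 84.7% and 85.6%, and for H2A.Z only replicate 2 at 8 h stands apart, at 37.8%.

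H1-10 encodes the linker histone variant H1.X, which binds the DNA between nucleosomes. It has a single exon (chromosome 3, 129033614 to 129035129, minus strand). Normalized counts of 710.7 and 832.2 in the 4 h libraries stood against 557.4 and 651.1 in the 8 h libraries. The groups did not overlap but the replicates were well apart (0.781 of the 4 h level, log2FC −0.36, standard error 0.10, edgeR adjusted p = 0.0108). The call was lost without replicate 2 at 4 h (log2FC −0.24, adjusted p = 0.205) and without replicate 1 at 8 h (log2FC −0.24, adjusted p = 0.067), and over all alternatives the adjusted p ran from 0.000258 to 0.205. The antisense gene H1-10-AS1, which covers 895 bases of its exon, had 88 and 84 counts in the 4 h libraries, then 47 and 25. These counts are small beside the 524 to 918 of H1-10, and their part in its value was not tested.

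H3-3A and H3-3B encode the same protein, H3.3, the H3 variant that is deposited outside replication. H3-3B (chromosome 17, 73772515 to 73781974, minus strand) gave 3177.7 and 3196.5 normalized counts in the 4 h libraries, against 3240.0 and 2806.8 in the 8 h libraries. Replicate 1 at 8 h lay above the 4 h libraries and replicate 2 below them (log2FC −0.08, 95% interval −0.24 to 0.09, edgeR adjusted p = 0.481). Its log2FC was 0.025 without replicate 2 at 8 h, and −0.22 with a correction for the trend of each library with mean expression, where it passed the test (adjusted p = 0.0412, against 0.066 to 0.842 under the other alternatives).

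H3-3A (chromosome 1, 226249552 to 226259720, plus strand) had only 3 and 7 counts in the 4 h libraries, then 6 and 7. It did not pass the filter of a CPM above 1 in at least 2 libraries and was not tested. Between 99.7% and 99.9% of the counts of the H3.3 pair thus fell on H3-3B in each library. The authors mapped reads without splicing and kept those with a single place in hg19. The exons of both genes were therefore searched for windows of 75 bases, the length of the single reads, which lie elsewhere in GRCh37, the assembly that hg19 represents, with at most 2 mismatches.

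Of the 774 windows inside an exon of the canonical H3-3A transcript, 688 (88.9%) had a further place, and so had all 186 coding windows. The further 222 windows cross a splice junction, so 8.64% of the positions of the transcript remained countable. With windows of 50 and of 100 bases, lengths added after the data were seen, this was 5.29% and 10.5%, and every coding window again had a further place. H3-3A has many processed pseudogenes, intronless copies of its mRNA scattered over the genome. The following coding window, at chr1:226259052-226259126, plus strand, GRCh37, is shown because it has the most exact copies, 5 in other places, with 8 when mismatches are allowed.

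H3-3A coding window: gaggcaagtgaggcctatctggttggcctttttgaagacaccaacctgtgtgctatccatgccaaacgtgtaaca

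A level of H3-3A mRNA could therefore not be read from its count. Whether the lost positions account for the low count was not tested. Per kb of countable positions H3-3A had a mean of 52.3 at 4 h, against 1666 for H3-3B. Among the other genes, countable positions made up 100% of the transcript for H1-10, 99.3% for H2AX, 78.3% for H2AZ2, 72.7% for H3-3B, 68.1% for MACROH2A2, 67.9% for MACROH2A1 and 31.8% for H2AZ1. With windows of 50 and of 100 bases the value of H2AZ1 was 21.8% and 40.5%. At 75 bases H2AZ1 lost 37.4% of positions to junctions and 244 of its 496 windows inside exons to other places. H3-3B shared 409 windows with H3-5, an intronless gene for the variant H3.5.

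H3-5 gave 600.4 and 643.7 normalized counts in the 4 h libraries, against 771.1 and 712.0 in the 8 h libraries (log2FC 0.26, standard error 0.09, edgeR adjusted p = 0.0372). This call was lost in 6 of 12 alternatives, namely DESeq2, library size alone, the trend correction, and without either 4 h library or replicate 1 at 8 h, and the adjusted p ran from 0.0135 to 0.294. Of the 222 junction windows of H3-3B, 93 had a single unspliced match in GRCh37, at H3-5. Reads of H3-3B and H3-5 are therefore uncertain in this mapping, and the share of H3-3B reads in the H3-5 count was not tested.

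**Figure D3:**
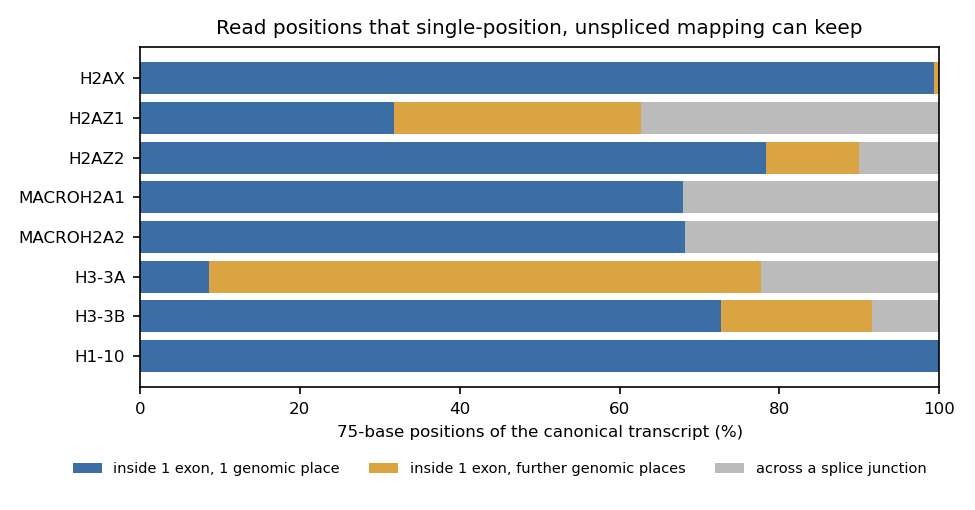
Positions of 75 bases along the canonical transcript of each gene (% of all positions, x axis) that lie inside an exon with no other place in GRCh37 at up to 2 mismatches, that lie inside an exon with further places, or that cross a splice junction. H3-3A retains 8.64% and H2AZ1 31.8%, while H2AX and H1-10, with a single exon each, retain 99.3% and 100%.

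Levels of the genes can be set side by side only per length. Per kb of countable positions at 75 bases, the mean at 4 h was 6221 ± 151 normalized counts for H2AZ1, 1666 ± 6.95 for H3-3B, 1292 ± 32.2 for MACROH2A1, 796.8 ± 21.0 for H2AZ2, 762.7 ± 24.1 for H2AX, 535.0 ± 59.6 for H1-10 and 222.6 ± 5.98 for MACROH2A2 (SD, n = 2). H2AZ2 and H2AX differed by little more than their SDs, and they changed order per kb of transcript, at 608.8 ± 16.1 and 722.4 ± 22.8. H2AZ1 was first on both scales, with 1810 ± 43.9 per kb, but its value per countable position rests on 252 positions.

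At 8 h, H2AX was at 338.8 ± 90.7 per kb of countable positions, below H1-10 at 419.0 ± 45.9, and these neighbours overlapped between libraries. The order of the other genes was that of 4 h, with H2AZ1 at 4343 ± 774, H3-3B at 1580 ± 160, MACROH2A1 at 1335 ± 18.9, H2AZ2 at 673.9 ± 12.2 and MACROH2A2 at 126.4 ± 1.68. H3-3A, at 52.3 ± 29.6 and 86.1 ± 21.4, rests on 86 positions and 3 to 7 counts per library.

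**Figure D4:**
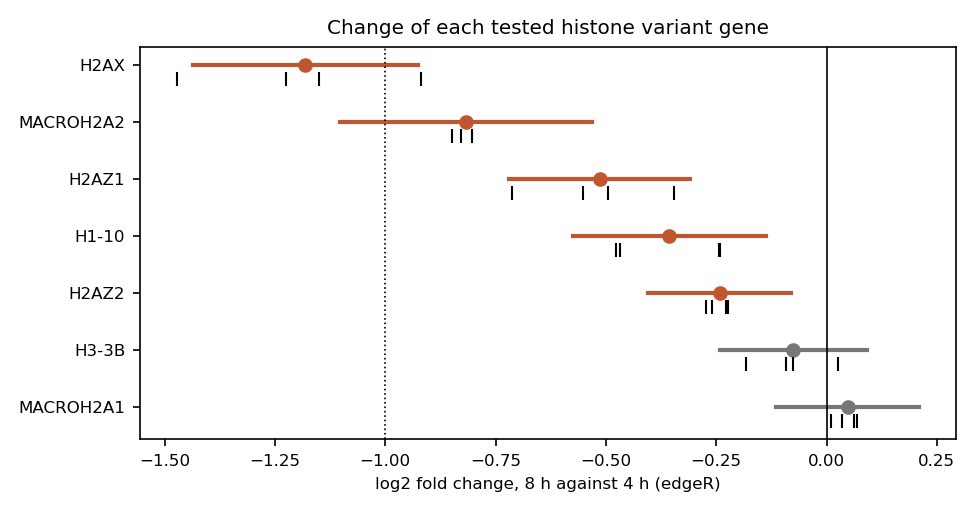
Log2 fold change between 8 h and 4 h (x axis) of the 7 histone variant genes tested. Points are edgeR estimates with 95% intervals, red with an adjusted p below 0.05 and grey otherwise, black ticks are the values with a library left out in turn, and the dotted line is the threshold of −1. H2AX, at −1.18, is the only estimate beyond it, and its ticks run from −1.47 to −0.92.

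The promoters of H2AX and H2AZ1, which fell, and of H3-3B, which did not pass the test, are shown because they hold the same short elements. Each is the run of 250 bases before the RefSeq start, matched to GRCh37 and written along the gene. Capitals mark CCAAT or its reverse ATTGG, the box bound by NF-Y, and TATAAA or its reverse TTTATA, the core of the TATA box.

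H2AX promoter, chr11:118966176-118966425, minus strand: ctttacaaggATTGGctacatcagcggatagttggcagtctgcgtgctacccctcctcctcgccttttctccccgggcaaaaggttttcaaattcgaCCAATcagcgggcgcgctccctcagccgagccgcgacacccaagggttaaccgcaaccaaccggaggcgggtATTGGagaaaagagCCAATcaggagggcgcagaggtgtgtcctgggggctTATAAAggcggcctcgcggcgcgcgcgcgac

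H2AZ1 promoter, chr4:100871433-100871682, minus strand: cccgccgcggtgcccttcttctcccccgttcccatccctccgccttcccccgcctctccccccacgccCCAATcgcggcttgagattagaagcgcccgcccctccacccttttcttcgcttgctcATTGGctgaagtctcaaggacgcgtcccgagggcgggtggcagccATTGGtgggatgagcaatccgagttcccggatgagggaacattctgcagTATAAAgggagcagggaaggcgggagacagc

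H3-3B promoter, chr17:73775861-73776110, minus strand: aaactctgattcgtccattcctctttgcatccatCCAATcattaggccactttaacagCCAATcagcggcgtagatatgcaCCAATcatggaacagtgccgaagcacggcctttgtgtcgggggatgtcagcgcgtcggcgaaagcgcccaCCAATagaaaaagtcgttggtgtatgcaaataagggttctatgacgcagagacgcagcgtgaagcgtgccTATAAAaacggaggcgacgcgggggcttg

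These promoters held CCAAT 4, 3 and 4 times and TATAAA once each, counted on both strands. The promoter of H2AZ2 held CCAAT 4 times and no TATAAA, that of H1-10 TATAAA once and no CCAAT, and that of MACROH2A2 neither. The starts listed for MACROH2A1 and H3-3A had at most 2 and 1 CCAAT. Of 35116 promoter windows of the same length, 32.0% held CCAAT, 2.93% held it 3 times or more, and 10.7% held TATAAA. Further searches were for GGGCGG, found in H2AZ1, H2AZ2, H3-3A and MACROH2A1 and in 42.6% of windows, TTTGAA, found in H2AX and in 13.3%, TTGGCGC, found in H1-10 and in 2.56%, and TTCGCGC, found in none of the 8 genes and in 1.85%. Such matches are a description of the letters in these windows.

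Factors that place or remove the variants were described from lists of related genes. Each count below stands beside 18.8% lower and 19.9% higher among all 12559 genes tested. Of the 7 genes for H3.3 deposition, 2 fell, 1 rose and 4 did not pass. ATRX, a remodeller that deposits H3.3 at repeats with DAXX, fell (log2FC −0.44, edgeR adjusted p = 0.00113), with a mean of 685.9 ± 13.6 normalized counts at 4 h and 505.1 ± 20.1 at 8 h (SD, n = 2). ASF1A, which hands H3.3 to the HIRA complex, fell by 0.45 on the log2 scale, and UBN2, a HIRA complex subunit, rose by 0.51. The call of UBN2 was lost in 5 of 12 alternatives, namely DESeq2, library size alone, and without either 4 h library or replicate 1 at 8 h (adjusted p from 0.00572 to 0.239). That of ASF1A was lost in 3, namely DESeq2 and without replicate 1 at 4 h or at 8 h (adjusted p from 0.00169 to 0.225).

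Of 21 genes for exchange of H2A.Z, 5 fell, 4 rose and 12 did not pass, against 18.8% lower and 19.9% higher over all tested genes. ANP32E, the chaperone that removes H2A.Z from nucleosomes, fell (log2FC −0.93, edgeR adjusted p = 1.6e-06), with a mean of 704.6 ± 77.2 normalized counts at 4 h and 370.4 ± 5.50 at 8 h (SD, n = 2). SRCAP, the ATPase that inserts H2A.Z, rose (log2FC 0.66, edgeR adjusted p = 6.63e-06), with a mean of 718.8 ± 20.4 normalized counts at 4 h and 1135 ± 2.18 at 8 h (SD, n = 2). MBTD1, a subunit of the TIP60 complex, rose by 0.74 on the log2 scale.

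Of 13 genes that phosphorylate H2A.X, act in the response to its phosphorylated form or remove phosphate from it, 6 fell, 2 rose and 5 did not pass. Over all tested genes, 18.8% were lower and 19.9% higher. MDC1, the protein that reads gamma-H2AX, fell (log2FC −1.09, edgeR adjusted p = 5.06e-07), with a mean of 526.9 ± 34.4 normalized counts at 4 h and 247.5 ± 17.3 at 8 h (SD, n = 2). ATR, a kinase of H2A.X, fell by 0.71 on the log2 scale, and TP53BP1, which is recruited to the mark, by 0.65. The genes that rose were PPM1D, a phosphatase of gamma-H2AX, and EYA3, a phosphatase of another H2A.X residue, with log2FC 0.41 and 0.45. Both were named after their values were seen. The call of PPM1D was lost without replicate 2 at 4 h (adjusted p = 0.0608, the highest of a range from 9.12e-05), and that of EYA3 without replicate 1 at 4 h (adjusted p = 0.0972, the highest of a range from 0.00136).

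Chaperones that act with replication all fell. These are 8 genes with a median log2FC of −0.98. Of them, 4 also passed the log2FC threshold of 1, against 3.88% of all tested genes that were lower by this rule. CHAF1B and CHAF1A, subunits of CAF-1, had log2FC of −1.285 and −1.122, and ASF1B, the replication-linked relative of ASF1A, −1.199. The 16 S-phase genes listed also all fell, with a median of −1.10 and FEN1 and MCM3 at −1.57 and −1.39. H2AX, at −1.18, lay within the range of this list, from −2.67 to −0.33, and so did MACROH2A2, H2AZ1 and H1-10. H2AZ2, H3-3B and MACROH2A1 lay above it. The range is wide, with its low end set by CCNE2, at 8 to 77 counts per library, and its high end by CDT1. The share of all tested genes within it was not taken, and the lists were chosen with earlier results of these data known. Whether the histone variant genes fell with the S-phase genes for a shared reason was not tested.

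General histone chaperones were divided, with 2 of 7 lower, 1 higher and 4 that did not pass, against 18.8% lower and 19.9% higher over all tested genes. SUPT16H, a FACT subunit, fell by 0.52 on the log2 scale, NAP1L4 fell by 0.42, and NPM1 rose by 0.50. The call of NPM1 was lost without replicate 2 at 4 h and without replicate 1 at 8 h, with a log2FC between 0.27 and 0.69 over the alternatives. Of 10 factors that make or process the mRNA of replication-dependent histones, 5 fell and 0 rose (0 also at an unadjusted p below 0.05), with a median log2FC of −0.37. SLBP, which binds the histone stem-loop, fell (log2FC −0.61, edgeR adjusted p = 4.34e-05), with a mean of 852.8 ± 5.99 normalized counts at 4 h and 557.6 ± 41.7 at 8 h (SD, n = 2). CSTF2 and CASP8AP2 fell by 0.75 and 0.63 on the log2 scale.

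Libraries were made from polyadenylated RNA, with reads kept only at a single place in hg19. The part of each in low counts of replication-dependent histone genes was not tested. Only 10 of the 65 such genes listed passed the CPM filter. Of these, 2 fell, H2BC21 (log2FC −1.08, edgeR adjusted p = 0.000439) and H2AC6 (log2FC −0.56, edgeR adjusted p = 0.0386), and 8 did not pass. Over all tested genes, 18.8% were lower. H2BC21 had 123 and 151 counts in the 4 h libraries, then 53 and 51. H2AC6 was named after its values were seen, and its call was lost in 5 of 12 alternatives, namely DESeq2, the trend correction, and without either 4 h library or replicate 1 at 8 h (adjusted p from 0.0143 to 0.226). Of 14 further symbols of variant histone genes, 10 were matched by current symbol to a listed gene and 4 were tested. A gene given by an older symbol was not matched, and it can stand among the replication-dependent genes above. CENPA, the centromeric H3 variant, fell (log2FC −0.74, edgeR adjusted p = 0.00491), with a mean of 121.3 ± 4.06 normalized counts at 4 h and 72.5 ± 5.92 at 8 h (SD, n = 2), H3-5 rose with the limits given above, and 2 genes did not pass.

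**Figure D5:**
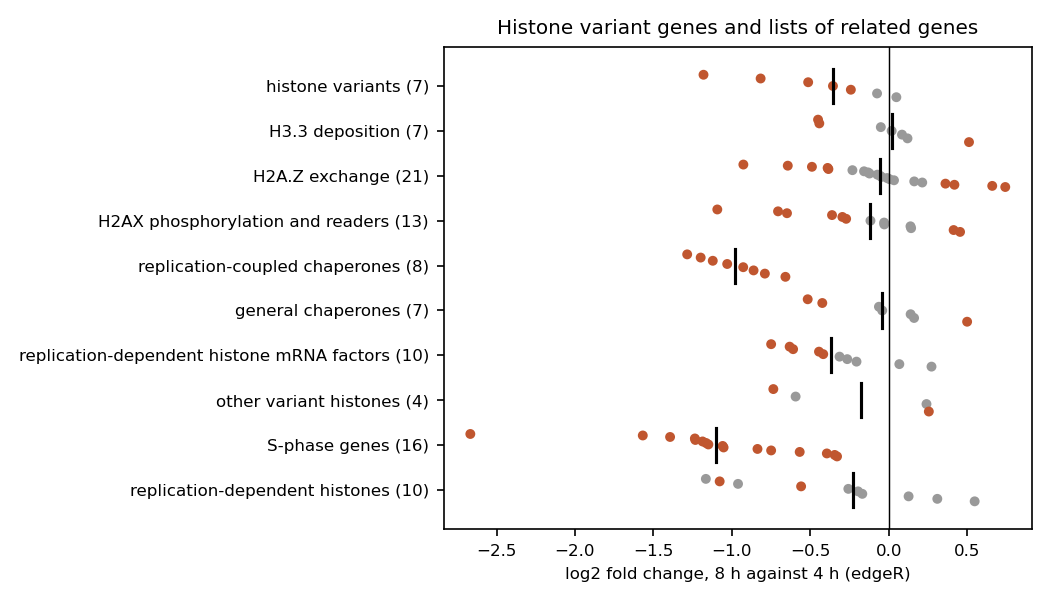
Log2 fold change between 8 h and 4 h (x axis) of each tested gene in the histone variant set and in the lists of related genes, with the number tested in parentheses. Points are genes, red with an edgeR adjusted p below 0.05 and grey otherwise, and black bars are medians. All points of the S-phase list and of the replication-coupled chaperones are red and below 0, while the H3.3 and H2A.Z lists spread to both sides.

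The pattern over the 4 libraries was compared with that of the 6067 other genes with a mean log2-CPM of at least 5, by the Euclidean distance between centred log2-CPM values. The nearest to H2AX, the gene with the largest fall, were C1orf216, ANP32A and KRT80, at distances of 0.23, 0.26 and 0.26 and with log2FC of −1.14, −1.12 and −1.34. The nearest to MACROH2A1, the gene with the highest log2FC, were SUN2, PFN1 and RYK, at distances of 0.0105 to 0.0116. These distances are a description over 4 libraries, and a similar log2FC follows from choosing genes by distance over the same libraries.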

How the data were processed

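RNA-Seq counts came from 2 libraries at 4 h and 2 at 8 h, each read being 75 bases from 1 end. The authors filtered reads by quality (FASTQC), used Bowtie (1.2.0 in the submitters' processing notes) against hg19, retained single-position reads and deposited raw counts per NCBI Gene identifier. The counting tool, annotation and strand setting are not given in the sources used here. Symbols came from the RefSeq table of GRCh38.p14 (23308 of 23459 matched), positions from GENCODE on GRCh37. The 12559 genes that exceeded a CPM of 1 in 2 or more libraries were normalized by TMM and tested with edgeR 4.0.16 in R 4.3.3, with time as the only term. The standard error is the log2FC divided by the square root of F. Limma-Voom (limma 3.58.1), the study's test, and DESeq2 1.42.0 were alternatives. In simulated counts of the 12559 genes, edgeR recovered 100% of 200 genes changed by a log2FC of 1.5, with 9 false calls. The changed genes were drawn above a floor of mean count, and dispersion was that of the trend over genes. Every member changed by less than 1.5, so this recovery does not cover their calls. Windows of the read length were searched with BLAST 2.17.0. The members and lists were chosen with earlier results of these data known. Named genes are the 8 members and, from each list, up to 3 with an adjusted p below 0.05, largest log2FC first, whose mean normalized count reached 100 at 4 h or 8 h.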

Additional observations from a re-analysis of the deposited data

How the results depend on the processing

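Of 59 log2FC and share values recomputed under alternatives in test, scaling, filter, length or block, 54 kept their direction and, where tested, their side of the threshold. Of 89 counts of calls, 82 stayed within 1.5 times the reported count, which does not say that the same genes were called: the rise of H3-5 was lost in 6 of 12 alternatives and that of UBN2 in 5. Under DESeq2, H2AZ2 had a log2FC of −0.24 with an adjusted p of 0.0527, and the number of genes called was 1 for H3.3 deposition, 3 for histone mRNA factors, 1 for other variant histones and 1 for replication-dependent histones. Library size alone gave MACROH2A1 a log2FC of −0.058, with the median of all genes moved by −0.108, and left 1 other variant histone called. Set against that median, MACROH2A1 was at 0.05, as with TMM. With the trend in mean expression corrected, MACROH2A1 was at −0.067, H3-3B at −0.217 (adjusted p = 0.0412), and 1 other variant histone was called. With glmTreat, which tests for a log2FC beyond 1, 0 members were called and 1, H2AX, had an unadjusted p below 0.05 (0.0231), while the usual edgeR test called 5 at an adjusted p below 0.05. Per countable position the change in the H3-3B share was −2.21 percentage points. There the counts were divided by 1913 positions for H3-3B and 86 for H3-3A, which had 3 to 7 counts per library. This division alters the level of the share but not the fold change in the ratio of the genes between times. The cause of the other moves was not tested. Windows of 50 bases, added after the data were seen, lowered the countable share of H3-3A to 5.29% and of H2AZ1 to 21.8%.

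With a library left out in turn, where the lone library is assumed to vary like the pair, members at the fold threshold were 0 to 1 and members at an adjusted p below 0.05 were 3 to 5. The log2FC ran from −0.478 to −0.242 for H1-10, −0.273 to −0.223 for H2AZ2 and −0.183 to 0.025 for H3-3B. Calls ran from 1 to 3 for H3.3 deposition, 4 to 9 for H2A.Z exchange, 4 to 8 for the H2A.X list, 3 to 5 for mRNA factors, 1 to 2 for other variant histones and 1 to 2 for replication-dependent histones. The H2AZ1 share changed by −8.23 to −1.5 points. The replicate number as a replicate block gave 1 member at the fold threshold and 5 below 0.05; it changed no call of a member and moved no count of a list by over 1.5 times. Deviations of same-numbered libraries had a correlation of 0.048, so the numbers were not taken to pair the libraries.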
